A study of Mus musculus with 9 samples.

Results

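The genes described here are 59 that act in mitosis and cytokinesis: the kinases, cyclins and phosphatases of mitotic entry, the spindle and passenger proteins, the spindle checkpoint, the kinetochore, condensin, the anaphase ubiquitin ligase, the cytokinesis machinery and 2 transcription factors of mitotic genes. They were chosen by name, with earlier results of these data known. Each gene was read from its brightest probe set among those that the array's platform table assigns to that gene alone. Of the 59 genes, 58 had such a probe set and all 58 passed the filter on dim probe sets, among 12715 genes tested of 18193 with a probe set. Ccnb1, which encodes cyclin B1, was not analysed here.

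The study measured RNA on 9 Affymetrix mouse arrays from BC3H1 cells, a line derived from a mouse brain tumour that has muscle-like properties, and asked how cells that resist rapamycin differ from cells that respond to it. Of these, 3 (RR_Rap) came from a resistant line, made from BC3H1 by keeping the cells for 6 months in 1 uM rapamycin and held in that dose throughout. A further 3 (RS_Rap) came from sensitive BC3H1 cells given 100 nM rapamycin over 24 h, and 3 (RS_DMSO) from sensitive cells given the solvent DMSO over 24 h. The resistant cells are 1 selected line, and line, dose and length of exposure differ together between the RR_Rap and RS_Rap groups, so that their effects cannot be told apart. Nothing in the labels tells whether each array had its own culture, so the p-values measure the spread between arrays, which may be technical.

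Cyclin-dependent kinase 1, bound to its cyclins, drives a cell into mitosis, and the Aurora and Polo-like kinases then build the spindle. Kinetochores tie the chromosomes to spindle microtubules, and the spindle checkpoint holds the anaphase ubiquitin ligase back until each chromosome is attached. That ligase frees separase, sister chromatids part, and the cytokinesis machinery divides the cell. Most of these genes are transcribed late in the cell cycle, through promoter elements read by the MuvB complex together with FOXM1 and B-MYB. Their RNA in a culture therefore depends in part on how many cells are dividing. Rapamycin inhibits the growth kinase mTOR and slows cell-cycle progression in many cell types. In a bulk culture, fewer dividing cells and less RNA per dividing cell cannot be told apart.

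The RS_DMSO array of replicate 3 stood apart from the others. The median signal of an array lay between 33.4 and 44.2 on 8 arrays and was 66.0 on that array, where 17.4% of probe sets lay below a signal of 16, against 29.4% to 34.8% on the others. Without that array the counts of the mitosis genes were 58 lower in RS_Rap than in RS_DMSO, 10 lower and 19 higher in RR_Rap than in RS_DMSO, and 58 higher in RR_Rap than in RS_Rap. The log2 ratio of 3' to 5' control probes for Actb was 0.32 to 0.35 on the RR_Rap arrays, 0.15 to 0.22 on the RS_Rap arrays and 0.16 to 0.18 on the RS_DMSO arrays. For Gapdh it was -0.33 to -0.25 on RR_Rap, -0.41 to -0.33 on RS_Rap and -0.33 to -0.30 on RS_DMSO arrays. All 8 markers of the muscle-like line passed the filter, and their summed signal was 19891 to 21837 on the RR_Rap arrays, 54464 to 58046 on the RS_Rap arrays and 42644 to 55882 on the RS_DMSO arrays. In the RR_Rap group 3 of these 8, Actg2, Cnn1 and Chrna1, had mean signals of 21.6, 14.2 and 15.2, below the filter's level of 22.2. Among other cell types' markers, 3 of 6 leukocyte genes passed the filter, and the signals of all 6 summed to 180.3 to 275 on RR_Rap, 224 to 244 on RS_Rap and 196 to 615 on RS_DMSO arrays. Likewise 3 of 7 epithelial and endothelial markers passed, and all 7 summed to 150.1 to 215 on RR_Rap, 121 to 256 on RS_Rap and 196 to 536 on RS_DMSO arrays. Of the neuron and glia markers 4 of 6 passed, and all 6 summed to 104 to 132 on RR_Rap, 176 to 253 on RS_Rap and 176 to 566 on RS_DMSO arrays. On RS_DMSO arrays, the upper ends of these ranges (615, 536 and 566) and the lowest sum of the muscle-like markers (42644) were all those of replicate 3. Whether these differences have a part in the changes given here was not tested.

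The promoters of the mitosis genes are shown because late cell-cycle genes are known to share a cell-cycle homology region (CHR) close to the start of transcription, often below CCAAT boxes. RefSeq windows of 300 bases on GRCm38.p6, from 250 bases before to 50 bases after the start, were at hand for 47 of the 58 genes, 52 windows in all. They are printed 5' to 3' in the direction of transcription, with motif matches in capitals: the CHR, the CCAAT box and an E2F site. The CHR was searched as TTTGAA and also as TTCGAA. The CCAAT box was searched by those letters. The E2F site was searched as TTCCCGC and also as TTGGCGC. All were searched on both strands, so a capital run may be the reverse complement of these letters. Matches of different motifs overlapped in 5 places over the 52 windows. The arrays' files name no genome build, and the coordinates are those of the RefSeq windows.

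The first 6 windows belong to the genes with the deepest falls in RS_Rap cells that had a window to print. Aurka lies at chr2:172370521-172370820 (minus strand), Birc5 at chr11:117848987-117849286 (plus strand), Cenpi at chrX:134307834-134308133 (plus strand), Melk at chr4:44300667-44300966 (plus strand), Cenpk, the first of its 3 windows, at chr13:104228361-104228660 (plus strand) and Spc25 at chr2:69206164-69206463 (minus strand). Aurka and Spc25 held CCAAT boxes and a CHR, Cenpi and Cenpk a CCAAT box, and Birc5 and Melk none of these letters in this window.
Aurka: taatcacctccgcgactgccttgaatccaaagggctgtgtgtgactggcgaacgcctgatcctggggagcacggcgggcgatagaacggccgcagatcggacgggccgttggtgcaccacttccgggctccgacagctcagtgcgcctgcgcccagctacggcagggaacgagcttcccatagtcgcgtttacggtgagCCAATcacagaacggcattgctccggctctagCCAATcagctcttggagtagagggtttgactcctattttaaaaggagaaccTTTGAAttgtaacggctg
Birc5: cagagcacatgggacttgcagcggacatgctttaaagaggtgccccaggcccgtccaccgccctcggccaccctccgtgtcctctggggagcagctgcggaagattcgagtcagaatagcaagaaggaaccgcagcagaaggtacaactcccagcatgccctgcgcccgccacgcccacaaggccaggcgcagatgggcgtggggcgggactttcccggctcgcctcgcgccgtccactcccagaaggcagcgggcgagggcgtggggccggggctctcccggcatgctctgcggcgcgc
Cenpi: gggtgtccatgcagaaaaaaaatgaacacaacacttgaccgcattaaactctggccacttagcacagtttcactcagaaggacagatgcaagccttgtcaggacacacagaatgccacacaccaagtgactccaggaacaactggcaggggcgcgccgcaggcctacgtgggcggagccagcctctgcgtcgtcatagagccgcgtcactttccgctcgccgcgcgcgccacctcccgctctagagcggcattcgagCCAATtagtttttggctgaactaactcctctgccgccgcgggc
Melk: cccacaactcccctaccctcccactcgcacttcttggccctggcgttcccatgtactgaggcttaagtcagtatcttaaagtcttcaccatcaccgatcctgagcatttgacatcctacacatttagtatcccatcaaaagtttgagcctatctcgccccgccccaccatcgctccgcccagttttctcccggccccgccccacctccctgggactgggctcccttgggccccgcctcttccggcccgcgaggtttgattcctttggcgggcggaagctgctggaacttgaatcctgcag
Cenpk: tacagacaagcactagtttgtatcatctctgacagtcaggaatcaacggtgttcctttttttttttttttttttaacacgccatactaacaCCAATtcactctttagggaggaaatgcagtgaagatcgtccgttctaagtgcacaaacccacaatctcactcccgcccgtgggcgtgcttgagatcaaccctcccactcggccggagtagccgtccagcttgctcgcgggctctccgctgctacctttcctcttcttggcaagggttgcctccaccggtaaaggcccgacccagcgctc
Spc25: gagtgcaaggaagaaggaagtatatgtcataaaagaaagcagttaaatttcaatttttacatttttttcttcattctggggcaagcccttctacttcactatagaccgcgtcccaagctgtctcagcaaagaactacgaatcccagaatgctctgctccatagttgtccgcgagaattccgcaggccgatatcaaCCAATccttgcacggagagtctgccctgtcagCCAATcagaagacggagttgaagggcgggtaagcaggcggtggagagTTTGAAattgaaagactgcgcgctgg

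The next 4 windows were chosen after the values were seen, since the results turn on these genes in the resistant line or they are the textbook mitotic regulators. Ccnb2 lies at chr9:70421505-70421804 (minus strand), Cdc20 at chr4:118437294-118437593 (minus strand), Plk1 at chr7:122159185-122159484 (plus strand) and Cenpa at chr5:30666636-30666935 (plus strand). All 4 held a CHR together with at least 1 CCAAT box.
Ccnb2: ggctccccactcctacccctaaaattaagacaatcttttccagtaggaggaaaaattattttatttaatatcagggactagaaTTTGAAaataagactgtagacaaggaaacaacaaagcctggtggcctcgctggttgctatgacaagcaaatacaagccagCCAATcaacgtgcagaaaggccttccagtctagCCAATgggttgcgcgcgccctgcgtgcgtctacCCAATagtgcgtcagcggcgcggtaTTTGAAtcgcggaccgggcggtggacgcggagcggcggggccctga
Cdc20: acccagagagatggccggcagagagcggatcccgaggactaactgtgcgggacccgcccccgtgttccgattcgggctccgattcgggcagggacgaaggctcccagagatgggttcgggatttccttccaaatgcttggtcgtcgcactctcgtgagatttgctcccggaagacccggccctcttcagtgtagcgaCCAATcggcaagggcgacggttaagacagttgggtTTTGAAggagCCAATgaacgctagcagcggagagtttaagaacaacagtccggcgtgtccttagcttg
Plk1: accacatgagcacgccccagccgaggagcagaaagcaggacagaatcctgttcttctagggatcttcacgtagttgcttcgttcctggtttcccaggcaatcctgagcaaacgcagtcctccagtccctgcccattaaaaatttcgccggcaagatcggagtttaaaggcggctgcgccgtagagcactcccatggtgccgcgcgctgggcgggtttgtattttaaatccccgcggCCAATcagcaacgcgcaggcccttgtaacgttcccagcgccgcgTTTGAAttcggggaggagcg
Cenpa: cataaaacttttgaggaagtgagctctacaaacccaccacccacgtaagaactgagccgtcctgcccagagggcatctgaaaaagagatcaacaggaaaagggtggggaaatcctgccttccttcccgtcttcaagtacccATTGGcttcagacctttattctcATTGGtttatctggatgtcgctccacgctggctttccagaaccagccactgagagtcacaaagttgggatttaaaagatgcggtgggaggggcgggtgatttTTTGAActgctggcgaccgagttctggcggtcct

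A CHR was present in 34 of the 52 windows (65.4%), against 13.9% of 13092 windows of the genes tested and 19.2% of all 32851 windows. CCAAT boxes were present in 73.1% of the mitosis windows, against 37.7% for the genes tested and 37.4% of all windows, and an E2F site in 23.1%, against 11.4% and 6.81%. A CHR and a CCAAT box stood together in 57.7% of the mitosis windows, against 5.42% for the genes tested and 7.52% of all windows, and all 3 motifs in 13.5%, against 0.588% and 0.371%. A CHR within 50 bases of the start, a distance set after the matches were seen, was found in 57.7%, against 3.51% and 5.31%. In RS_Rap against RS_DMSO cells the median log2 change was -2.07 for the 31 genes with a CHR and -2.04 for the 16 without. In RR_Rap against RS_DMSO cells it was 0.2 for those with a CHR and -0.02 for those without. Neither difference was tested.

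**Figure D1:**
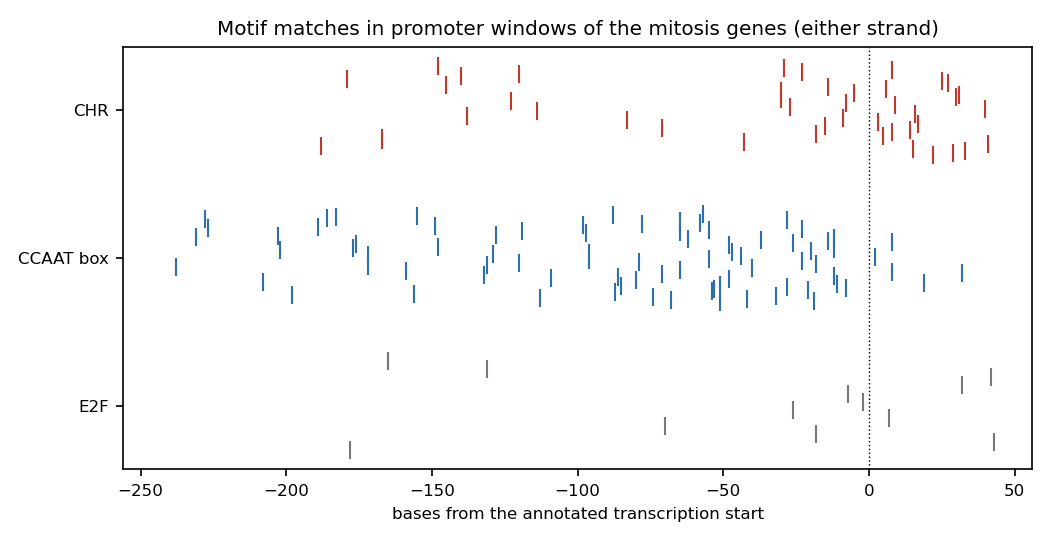
Positions of motif matches in the promoter windows of 47 mitosis genes, with distance from the start of transcription in bases on the horizontal axis and 1 row for each motif. CHR matches lie mostly next to the start, as in the 57.7% of windows with a CHR within 50 bases of it.

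In the short-term comparison, all measured mitosis genes fell in rapamycin. All 58 were lower in RS_Rap than in RS_DMSO cells, with no overlap between the groups' arrays for any of them, and none was higher. Of all genes tested, 15.2% were lower and 20.4% higher, and for 18.1% all RS_Rap arrays lay below all RS_DMSO arrays. The median log2 change of the 58 genes was -2.14, against 0.03 over all genes tested, and single genes lay between -3.14 for Ska1 and -0.57 for Bub3. A fall of at least 2-fold was called for 53 of the 58 (91.4%), against 3.96% of all genes, and these 53 made up 10.5% of the 503 genes with such a fall. Calls were made with limma at a Benjamini-Hochberg adjusted p below 0.05, and changes are differences of log2(signal + 16) with their standard error, a scale that understates the change of dim genes.

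In the resistant line, held in rapamycin, single mitosis genes lay on both sides of their level in sensitive cells without it. In RR_Rap cells 9 of the 58 genes were lower and 19 higher than in RS_DMSO cells, and 30 were not called. Over all genes, 25.8% were lower and 25.9% higher in this comparison, and beside these shares the 15.5% lower and 32.8% higher among the mitosis genes are no result about them as a group. The median log2 change was 0.01, against -0.07 over all genes, and the range ran between -1.51 for Cenpi and 1.27 for Cenpa. Higher genes made up 67.9% of the calls here, 82.8% (5 lower, 24 higher) with arrays centred on their 75th percentile, which moved the median of all genes to 0.03, and 56.7% (13 lower, 17 higher) after quantile normalization.

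Set directly against RS_Rap cells, the resistant line was higher for all 58 genes, with no overlap between the arrays for any of them. Of all genes tested, 26.4% were higher and 30.1% lower in RR_Rap than in RS_Rap cells, and for 30.1% all RR_Rap arrays lay above all RS_Rap arrays. The median log2 change of the mitosis genes was 2.26, against -0.08 over all genes, and single genes lay between 0.24 for Zw10 and 3.44 for Cenpa. A rise of at least 2-fold was called for 54 of the 58 (93.1%), against 10.3% of all genes. The same RS_DMSO and RS_Rap arrays serve in more than 1 of these comparisons, so a fall in RS_Rap cells enters the values of both comparisons that use them.

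**Figure D2:**
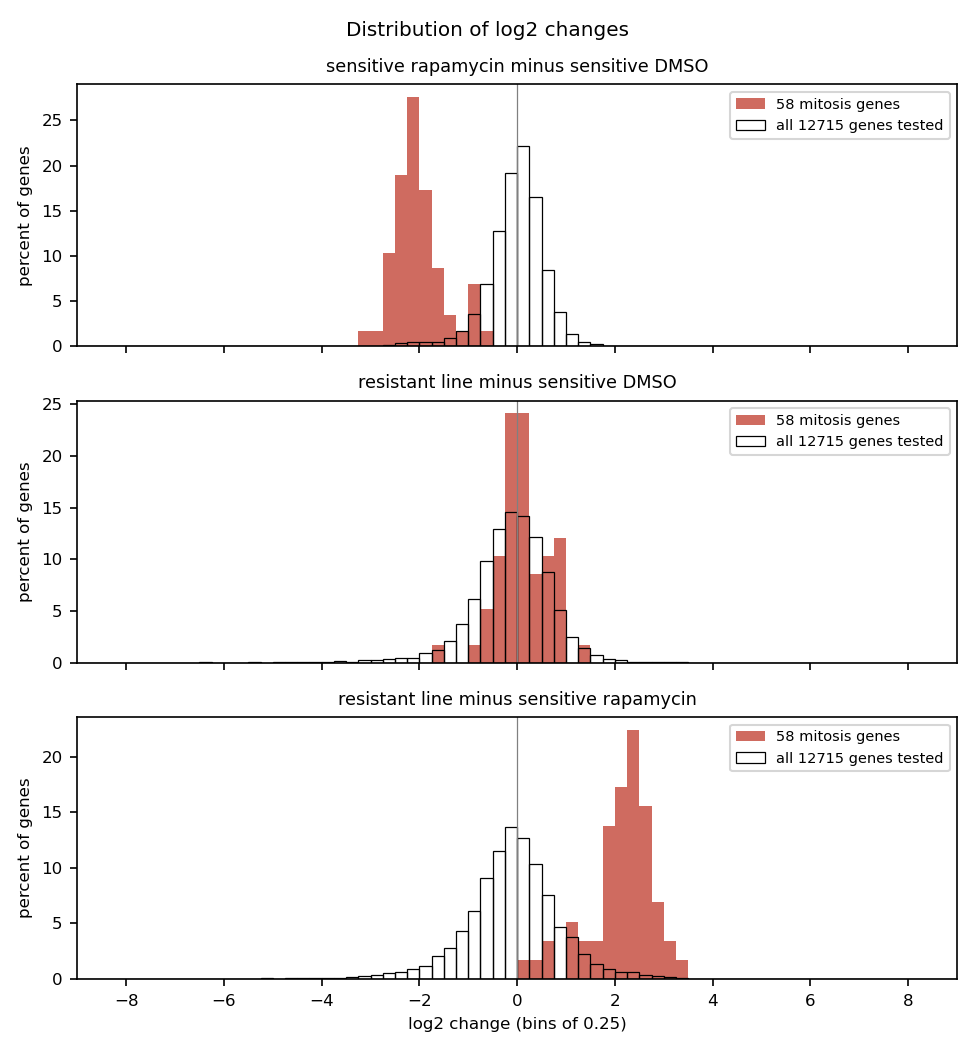
Distribution of log2 changes of the 58 mitosis genes and of all 12715 genes tested, as percent of genes in bins of the log2 change, for each of the 3 comparisons. The mitosis genes have medians of -2.14 (RS_Rap minus RS_DMSO), 0.01 (RR_Rap minus RS_DMSO) and 2.26 (RR_Rap minus RS_Rap), while the medians of all genes lie at 0.03, -0.07 and -0.08.

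**Figure D3:**
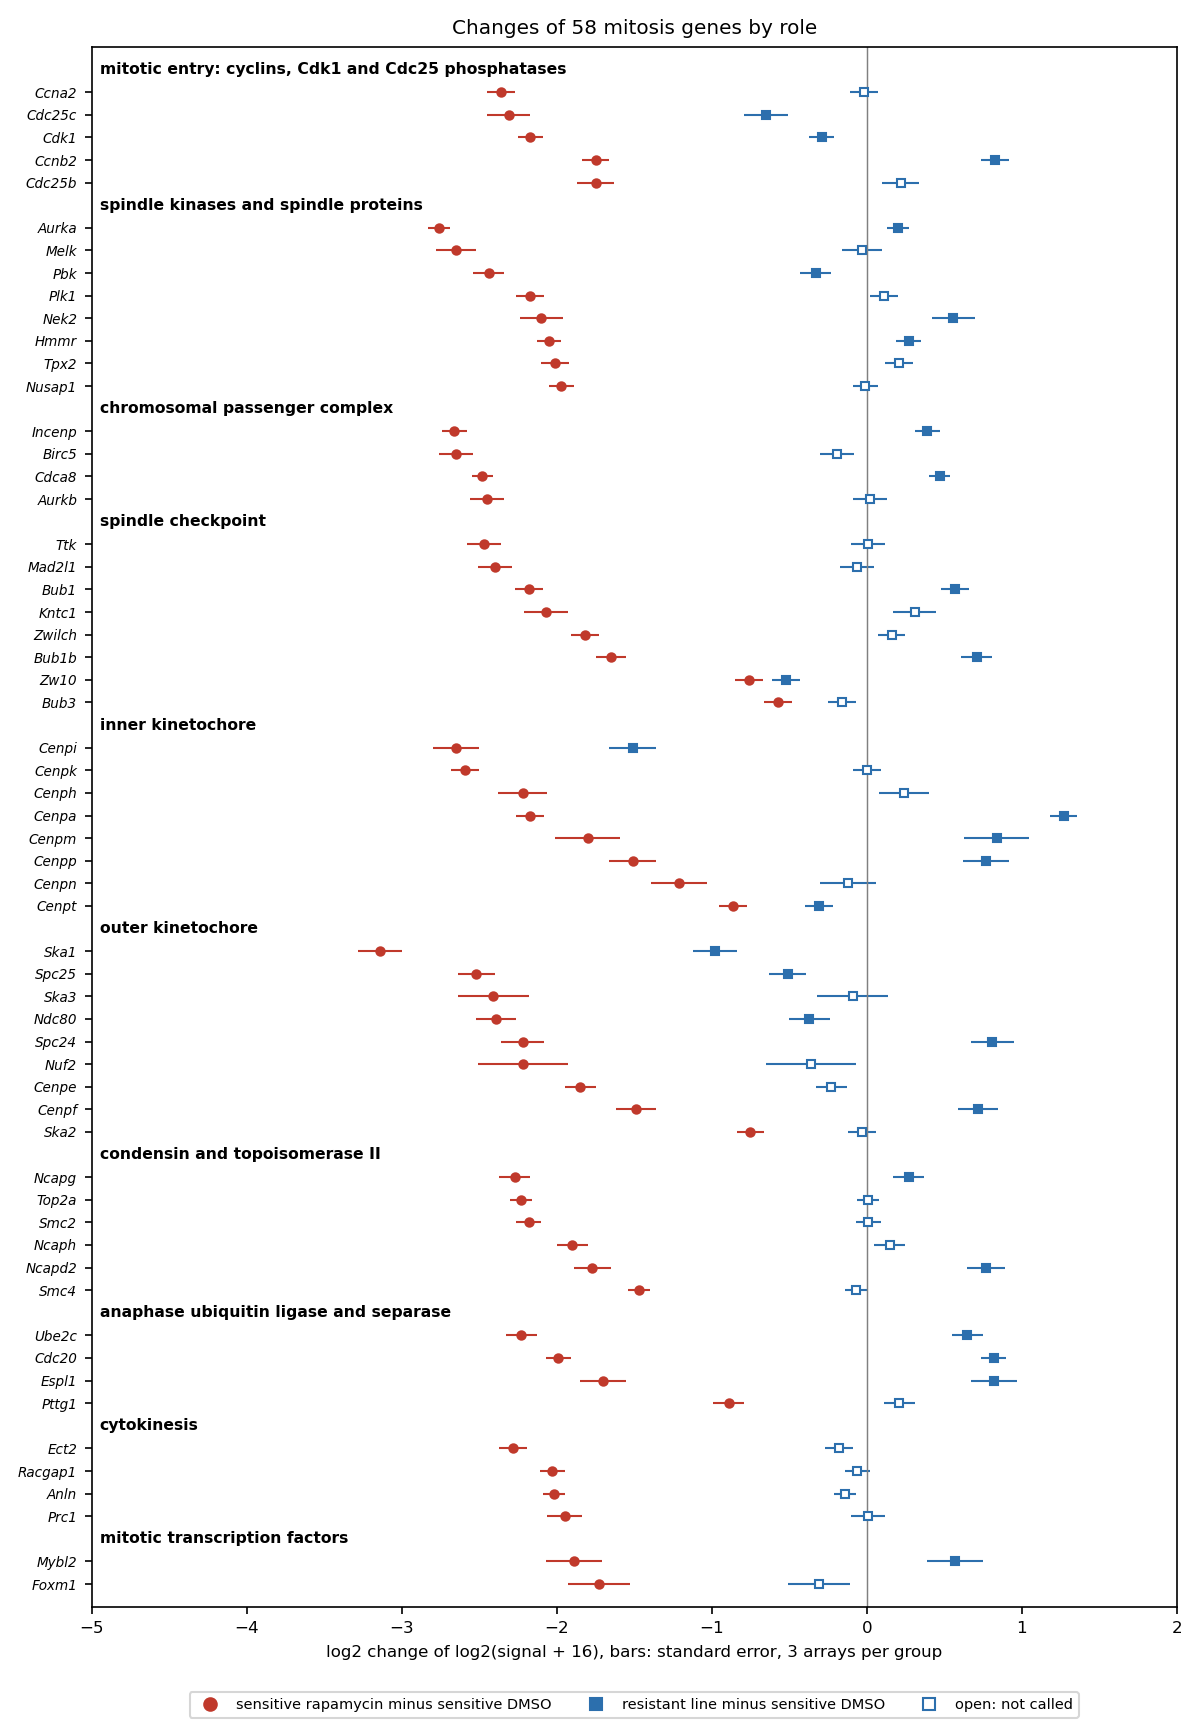
Log2 change ± standard error of each of the 58 mitosis genes, by role, in sensitive cells given rapamycin (circles) and in the resistant line (squares, open where not called), both against sensitive cells in DMSO. All circles lie below 0, between -3.14 and -0.57, while the squares spread between -1.51 and 1.27.

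Among the genes of mitotic entry, all 5 measured fell in RS_Rap cells, with a median log2 change of -2.17. Ccna2, which encodes cyclin A2, had signals of 2782, 2582 and 2503 on the RR_Rap arrays, 436, 513 and 573 on the RS_Rap arrays and 2695, 2671 and 2622 on the RS_DMSO arrays. The RS_Rap arrays stood apart below, and those of the resistant line and of DMSO overlapped. The change was -2.36 ± 0.09 in RS_Rap against RS_DMSO cells (adjusted p = 1.52e-12), a signal 5.25-fold lower, and -0.02 ± 0.09 in the resistant line against RS_DMSO cells (adjusted p = 0.849). Cdk1, the kinase that cyclins A and B activate, had 5054, 5198 and 5127 on RR_Rap, 1288, 1405 and 1471 on RS_Rap and 6493, 6694 and 5722 on RS_DMSO arrays. All 3 groups were separate, with the resistant line slightly below DMSO: -0.29 ± 0.08 (adjusted p = 0.00428), against -2.17 ± 0.08 for RS_Rap. Cdc25c, a phosphatase that activates CDK1, had 282, 246 and 278 on RR_Rap, 78.0, 74.1 and 69.3 on RS_Rap and 448, 441 and 399.6 on RS_DMSO arrays. In the resistant line it lay between both sensitive groups, -0.65 ± 0.14 against DMSO (adjusted p = 0.000598), and fell by 5.82-fold in RS_Rap cells.

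Ccnb2, which encodes cyclin B2, went the other way in the resistant line. Its signals were 2881, 2814 and 2937 on RR_Rap arrays, 395, 481 and 535 on RS_Rap arrays and 1675, 1655 and 1510.3 on RS_DMSO arrays. The resistant arrays were the highest and the RS_Rap arrays the lowest, with changes against DMSO of 0.83 ± 0.09 (adjusted p = 7.62e-07) in RR_Rap and -1.75 ± 0.09 in RS_Rap cells. The difference between the changes of Ccnb2 and of its kinase Cdk1 in RR_Rap against RS_DMSO cells was 1.12 ± 0.04 on the log2 scale, a pair set side by side after the values were seen; the arrays did not overlap and the exact two-sided permutation test gave p = 0.1, the smallest that 3 against 3 arrays allow. The phosphatase gene Cdc25b changed by -1.75 in RS_Rap cells and by 0.22 in RR_Rap cells, where it was not called. With arrays centred on their 75th percentile, the lower level of Cdk1 in RR_Rap was no longer called and a higher one of Cdc25b was.

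All 8 genes of spindle kinases and spindle proteins fell in RS_Rap cells, with a median of -2.14. Aurka encodes Aurora kinase A, which acts at spindle poles. It had signals of 2295, 2269 and 2332 on RR_Rap arrays, 275, 296 and 274 on RS_Rap arrays and 1991, 2129 and 1885 on RS_DMSO arrays. Its RS_Rap signal was 7.10-fold lower than in DMSO, with a change of -2.76 ± 0.07 (adjusted p = 6.52e-14). In the resistant line it was slightly above DMSO, 0.20 ± 0.07 (adjusted p = 0.0315), a call lost when any RR_Rap array or the RS_DMSO array of replicate 1 or 3 was left out; the mean over its probe sets, of which the other is dim, gave -0.17 (adjusted p = 0.341). Melk, a kinase of dividing cells, had 760.0, 785 and 759.8 on RR_Rap, 105, 129.5 and 101 on RS_Rap and 719, 998 and 677 on RS_DMSO arrays. The resistant line and DMSO overlapped (-0.03 ± 0.13, adjusted p = 0.86) and both stood above RS_Rap, which changed by -2.65 ± 0.13 against DMSO.

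Nek2, a centrosomal kinase, had 1226, 1296 and 1254 on RR_Rap arrays, 173, 210.0 and 176 on RS_Rap arrays and 941, 1041 and 625 on RS_DMSO arrays. The resistant arrays were highest and did not overlap DMSO, where replicate 3 was the lowest: the change was 0.56 ± 0.14 (adjusted p = 0.00278). Pbk, a mitotic kinase, was the 1 gene of this list that was lower in the resistant line than in DMSO, with a change of -0.33 ± 0.10 (adjusted p = 0.00748). Its signals were 1959, 1901 and 2058 on RR_Rap, 395, 535 and 413 on RS_Rap and 2574, 2521 and 2360.3 on RS_DMSO arrays, with all 3 groups separate. The lower level of Pbk in RR_Rap was not called with arrays centred on their 75th percentile. Hmmr, a microtubule-binding spindle protein, changed by -2.05 in RS_Rap and rose by 0.27 in RR_Rap cells against DMSO. Plk1, the Polo-like kinase, Tpx2, the activator of Aurora A, and Nusap1, a spindle microtubule protein, fell in RS_Rap by 4.67-fold, 4.15-fold and 4.01-fold and were not called in RR_Rap against DMSO, at 0.11, 0.21 and -0.01.

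The chromosomal passenger complex corrects faulty attachments of chromosomes and acts again in cytokinesis. Its 4 genes fell together in RS_Rap cells, within a narrow range of -2.66 to -2.45. Incenp, the scaffold, had signals of 2712, 3016 and 3056 on RR_Rap arrays, 345, 335 and 333 on RS_Rap arrays and 2308, 2411 and 1977 on RS_DMSO arrays. Its 3 groups were separate, and it rose in the resistant line by 0.39 ± 0.08 against DMSO (adjusted p = 0.000665). Birc5, which encodes survivin, had 2593, 2429.8 and 2696 on RR_Rap, 351, 550.3 and 481 on RS_Rap and 2937, 2894 and 2963 on RS_DMSO arrays. It was 6.36-fold lower in RS_Rap than in DMSO (adjusted p = 8.37e-12), while the resistant line's -0.19 ± 0.11 was not called (adjusted p = 0.182) although its 3 arrays all lay below those of DMSO. Cdca8, which encodes borealin, had 2586, 2658 and 2759 on RR_Rap, 324, 361 and 317 on RS_Rap and 1971, 1963 and 1851 on RS_DMSO arrays. It rose in the resistant line by 0.47 ± 0.07 (adjusted p = 4.55e-05). Aurkb, the kinase of the complex, was at 0.02 ± 0.11 in RR_Rap against DMSO, with overlapping arrays.

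The spindle checkpoint list held both deep and shallow falls. All 8 genes were lower in RS_Rap than in DMSO, with a median of -1.95. Ttk, the kinase MPS1 that starts checkpoint signalling, had signals of 642, 715 and 674 on RR_Rap arrays, 109.8, 117 and 97.2 on RS_Rap arrays and 628, 737 and 647 on RS_DMSO arrays. RR_Rap and RS_DMSO overlapped and RS_Rap stood 6.22-fold below DMSO (adjusted p = 1.16e-11). Mad2l1, which encodes the checkpoint effector MAD2, had 3077, 3555 and 3488 on RR_Rap, 537, 687 and 760.0 on RS_Rap and 3433, 3830.3 and 3297 on RS_DMSO arrays. The resistant line again overlapped DMSO (-0.06 ± 0.11, not called), and RS_Rap was 5.32-fold lower. Bub1b, which encodes the BUBR1 subunit of the checkpoint complex, had 1583, 1519 and 1587 on RR_Rap, 254, 332 and 293 on RS_Rap and 932, 1058 and 865 on RS_DMSO arrays. The resistant arrays were the highest of the 3 groups, 0.71 ± 0.10 above DMSO (adjusted p = 9.76e-06), and the kinase gene Bub1 rose there by 0.57 ± 0.09.

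Zw10 and Bub3 were the shallow members. Zw10 belongs to the RZZ complex, which brings checkpoint proteins to kinetochores, and also acts in membrane traffic outside mitosis. It had 446, 432 and 476 on RR_Rap arrays, 361, 381 and 399 on RS_Rap arrays and 698, 656 and 614 on RS_DMSO arrays. Both rapamycin groups lay below DMSO, at -0.52 ± 0.09 in RR_Rap (adjusted p = 0.000128) and -0.76 ± 0.09 in RS_Rap cells, and they differed from each other by only 0.24 ± 0.09 (adjusted p = 0.0374). That last call was lost, at adjusted p between 0.0518 and 0.14, when any RR_Rap array or either of the RS_Rap arrays of replicates 1 and 2 was left out, and with the replicate number as a block. Bub3, which carries BUB1 and BUBR1 to the kinetochore, changed by -0.57 ± 0.09 in RS_Rap and -0.16 in RR_Rap cells, and its fall in RS_Rap was not called on the mean of its probe sets. The other RZZ genes, Kntc1 and Zwilch, fell by 4.83-fold and 3.71-fold in RS_Rap cells and were not called in the resistant line against DMSO (0.31 and 0.16).

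**Figure D4:**
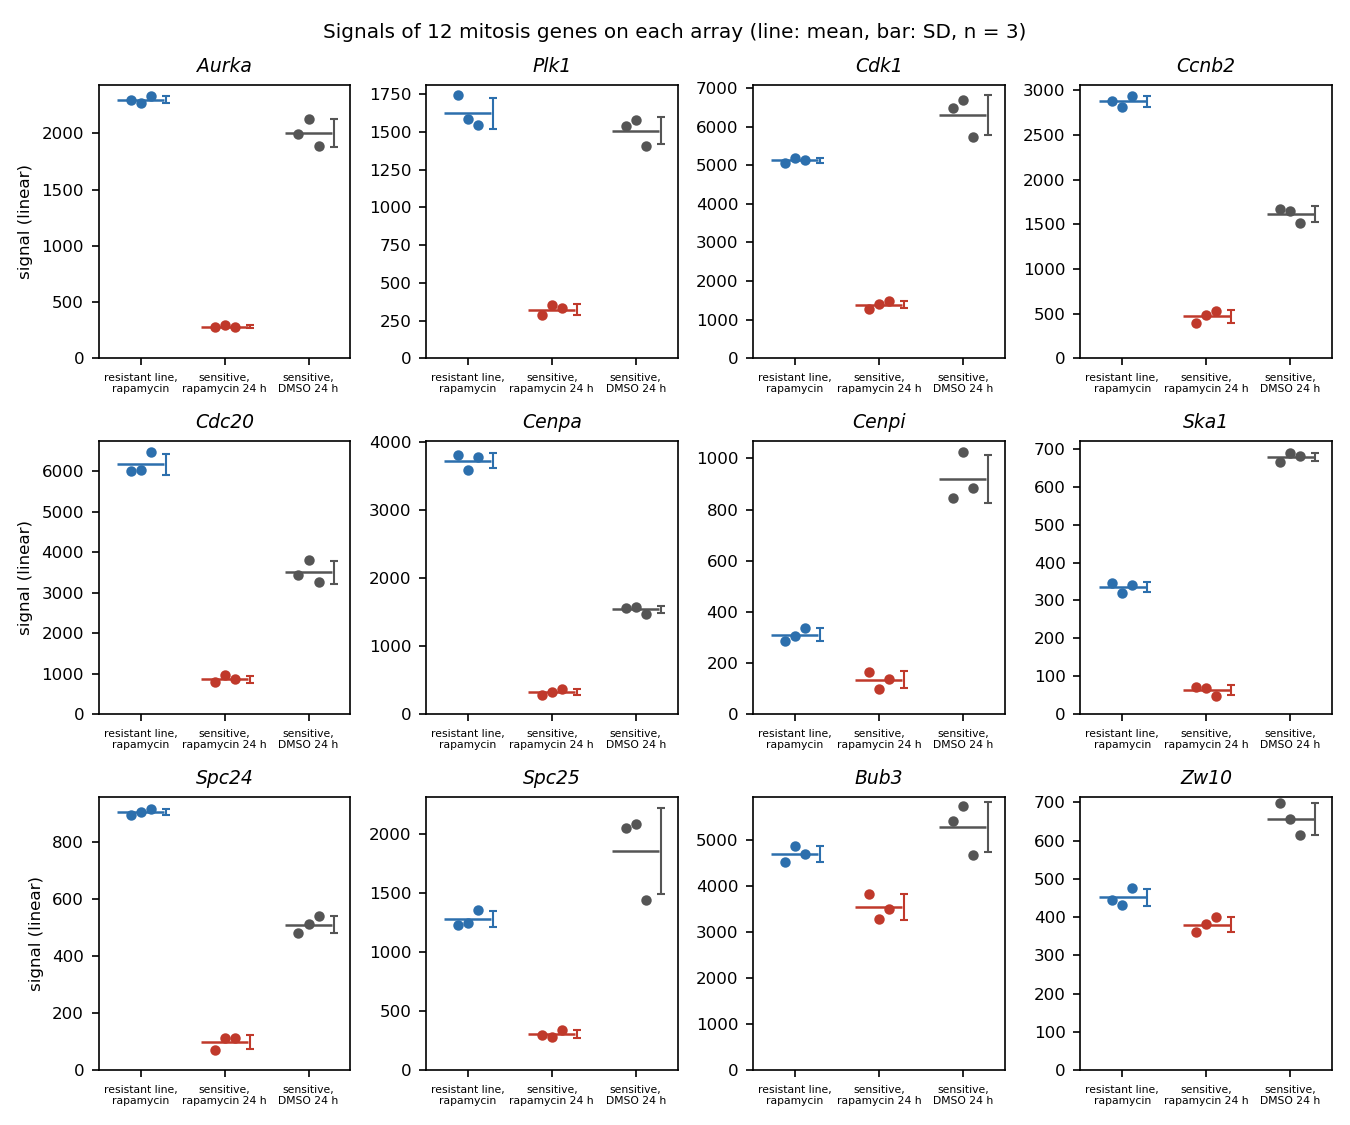
Signal on each array for single mitosis genes, with RR_Rap on the left, RS_Rap in the middle and RS_DMSO on the right, each point an array, the line the group mean and the bar its SD (n = 3). RS_Rap is the lowest group in every panel, and the RR_Rap arrays lie above, within or below those of RS_DMSO, depending on the gene.

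The inner kinetochore sits on centromeric chromatin, and it held the widest spread in the resistant line: the list's lowest and highest members were the lowest and highest of all 58 genes. All 8 fell in RS_Rap cells (median -1.99). Cenpi, a subunit of the constitutive centromere network, had signals of 287, 308 and 338 on RR_Rap arrays, 166, 99.3 and 139 on RS_Rap arrays and 846, 1024 and 884 on RS_DMSO arrays. RS_DMSO was highest and the 3 groups were separate. Against DMSO, it was lower in both rapamycin groups, by 2.95-fold in RR_Rap (-1.51 ± 0.15, adjusted p = 1.22e-07) and by 6.82-fold in RS_Rap cells (-2.65 ± 0.15). Cenpa, the histone H3 variant that marks centromeres, was singled out after its values were seen and had 3806, 3593 and 3781 on RR_Rap, 287, 333 and 373 on RS_Rap and 1565, 1577 and 1474 on RS_DMSO arrays. Its resistant arrays were more than 2-fold above all DMSO arrays: 2.42-fold, or 1.27 ± 0.09 (adjusted p = 1.44e-09), while RS_Rap was 4.65-fold below DMSO. The changes of Cenpa and Cenpi in RR_Rap against DMSO differed by 2.78 ± 0.10 on the log2 scale, with no overlap and an exact permutation p = 0.1, the smallest possible here; this pair too was chosen after the values were seen.

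Cenpk, another subunit of the centromere network, had 977, 1011 and 1047 on RR_Rap arrays, 136, 164 and 165 on RS_Rap arrays and 998, 1013 and 1013 on RS_DMSO arrays. The resistant line lay across the DMSO range (0.00 ± 0.09), and RS_Rap lay 6.52-fold below it. Cenpt, which links the centromere to microtubule-binding proteins, had 541, 479 and 475 on RR_Rap, 339, 335 and 326 on RS_Rap and 601, 612 and 647 on RS_DMSO arrays. In the resistant line its change was -0.31 ± 0.09 (adjusted p = 0.00952), a call lost with arrays centred on their 75th percentile, and it was 1.86-fold lower in RS_Rap cells. Cenpm and Cenpp, subunits of the same network, rose in RR_Rap against DMSO by 0.84 ± 0.21 and 0.77 ± 0.15. Cenph and Cenpn changed in RS_Rap by -2.22 and -1.21, and were not called in RR_Rap, at 0.24 and -0.12, on their brightest probe sets. Another bright probe set of Cenpn gave -2.15 ± 0.10 in RS_Rap cells. It was called lower in RR_Rap than in DMSO cells (-0.41 ± 0.10, adjusted p = 0.00322).

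The outer kinetochore binds microtubules, and its 9 genes fell in RS_Rap with a median of -2.22. Ska1, of the complex that follows shortening microtubules, showed the deepest fall of all 58 genes. Its signals were 346, 321 and 342 on RR_Rap arrays, 73.1, 70.0 and 47.9 on RS_Rap arrays and 666, 689 and 680.4 on RS_DMSO arrays. The resistant line stood between the other groups without overlap: RS_Rap was 10.7-fold below DMSO (-3.14 ± 0.14, adjusted p = 1.21e-11) and RR_Rap 2.02-fold below it (-0.98 ± 0.14, adjusted p = 1.16e-05). Its partners Ska2 and Ska3 changed by -0.75 and -2.41 in RS_Rap and were not called in RR_Rap, at -0.03 and -0.09.

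The Ndc80 complex is the main microtubule coupler and has 4 subunits, of which the resistant line had 2 lower, 1 higher and 1 not called against DMSO. Spc25 had signals of 1235, 1248 and 1362 on RR_Rap arrays, 302, 281 and 341 on RS_Rap arrays and 2052, 2090.0 and 1442 on RS_DMSO arrays. It was lower in the resistant line, at -0.51 ± 0.12 (adjusted p = 0.00136), and the mean over its probe sets, of which the other is dim, gave 0.09 (adjusted p = 0.651). Ndc80 had 372, 391 and 439 on RR_Rap, 73.9, 90.8 and 96.8 on RS_Rap and 533, 530.2 and 506 on RS_DMSO arrays. It too was lower in RR_Rap, at -0.37 ± 0.13 (adjusted p = 0.0198), a call lost with arrays centred on their 75th percentile and when any of 4 single arrays was left out (replicates 1 and 2 of RS_DMSO and of RR_Rap). Spc24, which pairs with SPC25 and was singled out after its values were seen, had 896, 905 and 917 on RR_Rap, 70.4, 114 and 113 on RS_Rap and 479.5, 512 and 539.9 on RS_DMSO arrays. It was the highest in RR_Rap, 0.81 ± 0.14 above DMSO (adjusted p = 8.14e-05). The changes of Spc24 and Spc25 in RR_Rap against DMSO differed by 1.32 ± 0.22 without overlap (exact permutation p = 0.1, the smallest possible, pair chosen after the values were seen). Nuf2, the fourth subunit, was at -0.36 ± 0.29 in RR_Rap (not called). Cenpf, a large protein of the outer kinetochore, rose in RR_Rap by 0.72 ± 0.13, and Cenpe, a kinesin motor, was at -0.23 (not called), with falls of 3.04-fold and 3.78-fold in RS_Rap cells.

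Condensin and topoisomerase II compact and untangle the chromosomes. Their 6 genes fell in RS_Rap cells, with log2 changes of -2.27 to -1.47. Ncapg, a condensin I subunit, had signals of 925, 965 and 932 on RR_Rap arrays, 154, 167 and 128 on RS_Rap arrays and 757, 763 and 809.6 on RS_DMSO arrays. It was 5.19-fold lower in RS_Rap cells (adjusted p = 1.26e-11), and 0.27 ± 0.10 higher in the resistant line (adjusted p = 0.0308), a call lost when any RR_Rap array or the RS_DMSO array of replicate 1 or 2 was left out. Top2a, the topoisomerase, had 4503, 4369.8 and 4145 on RR_Rap, 930.1, 968 and 832 on RS_Rap and 4179, 4414 and 4369 on RS_DMSO arrays. The resistant and DMSO arrays overlapped (0.01 ± 0.07) and RS_Rap stood 4.75-fold below DMSO. Ncapd2, another condensin I subunit, had 944, 874 and 842 on RR_Rap, 149, 162 and 112 on RS_Rap and 514, 563 and 466 on RS_DMSO arrays. Its 3 groups were separate, with RR_Rap 0.77 ± 0.12 above DMSO (adjusted p = 4.69e-05). Smc2, Smc4 and Ncaph, the condensin ATPases and their bridging subunit, were not called in RR_Rap against DMSO, at 0.01, -0.07 and 0.15.

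The anaphase genes had the highest median of any role list in the resistant line, 0.73 above DMSO on the log2 scale. This rank was read off after the values were seen, from a list of 4 genes, and was not tested. Of the 4 genes, 3 were called higher, against 25.9% of all genes. The median was 0.25 for the 15 further subunits and regulators of the anaphase-promoting complex given below. Ube2c, the ubiquitin-conjugating enzyme of the anaphase-promoting complex, had signals of 9064, 9039.5 and 8831 on RR_Rap arrays, 1001, 1412 and 1249 on RS_Rap arrays and 5896, 6054 and 5283 on RS_DMSO arrays. The groups were separate, with RR_Rap 0.65 ± 0.10 above DMSO (adjusted p = 3.39e-05) and RS_Rap 4.71-fold below it (adjusted p = 1.53e-11). Cdc20, which activates that complex at anaphase, had 6003, 6022 and 6472 on RR_Rap, 785, 959.9 and 859 on RS_Rap and 3443, 3807 and 3254 on RS_DMSO arrays. Its order was the same: 0.82 ± 0.08 in RR_Rap (adjusted p = 2.77e-07) and -1.99 ± 0.08 in RS_Rap cells against DMSO. Espl1, which encodes separase, had 834, 692 and 675 on RR_Rap, 92.0, 153 and 105 on RS_Rap and 356, 432 and 434 on RS_DMSO arrays. It was 1.80-fold higher in RR_Rap (0.82 ± 0.15, adjusted p = 0.000198) and 3.50-fold lower in RS_Rap than in DMSO. Pttg1, which encodes securin, the inhibitor of separase, was at -0.89 ± 0.10 in RS_Rap and 0.21 ± 0.10 (not called) in RR_Rap cells on its brightest probe set. Another bright probe set of Pttg1 gave -1.63 ± 0.07 in RS_Rap cells and was called higher in RR_Rap cells (0.27 ± 0.07, adjusted p = 0.00622).

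Genes of cytokinesis fell in RS_Rap cells. On their brightest probe sets none of the 4 was called in RR_Rap against DMSO, where their changes lay between -0.18 and 0.01. Ect2, the exchange factor that activates RhoA at the cell equator, had signals of 1350.2, 1629 and 1599.8 on RR_Rap arrays, 334, 375 and 318 on RS_Rap arrays and 1612, 1841 and 1728 on RS_DMSO arrays. Its RR_Rap and RS_DMSO arrays overlapped (-0.18 ± 0.09, adjusted p = 0.112), and RS_Rap was 5.04-fold below DMSO. Racgap1, the centralspindlin subunit that recruits ECT2, had 1816, 1755 and 1757 on RR_Rap, 390.3, 466 and 468 on RS_Rap and 1879, 1945 and 1721 on RS_DMSO arrays. The picture was the same, with -0.06 ± 0.08 in RR_Rap and -2.03 ± 0.08 in RS_Rap cells. Prc1, which bundles midzone microtubules, and Anln, the scaffold anillin, fell in RS_Rap by 3.91-fold and 4.12-fold. After quantile normalization, Anln (-0.25, adjusted p = 0.00424) and Ect2 (-0.25, adjusted p = 0.0329) were called lower in RR_Rap than in DMSO. The mean over the probe sets of Anln also gave a lower call (-0.54, adjusted p = 0.000284). Its other, dimmer probe set was at -0.94 ± 0.22 (adjusted p = 0.00224).

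The transcription factors of mitotic genes both fell in RS_Rap cells. Foxm1 had signals of 236, 271 and 231 on RR_Rap arrays, 61.3, 123 and 71.0 on RS_Rap arrays and 257, 315 and 362 on RS_DMSO arrays. The resistant arrays overlapped DMSO (-0.31 ± 0.20, adjusted p = 0.214), and RS_Rap was 3.66-fold lower than DMSO (adjusted p = 2.56e-06). Mybl2, which encodes B-MYB, had 391, 379.6 and 376 on RR_Rap, 40.5, 55.0 and 79.9 on RS_Rap and 269, 261 and 229.9 on RS_DMSO arrays. It was 0.57 ± 0.18 higher in the resistant line (adjusted p = 0.013) and 4.33-fold lower in RS_Rap cells. Calls on Aurka, Nek2, Ncapg and Mybl2 in RR_Rap against DMSO each changed in at least 1 alternative processing, whereas the other 15 higher calls held in every one of the 19 alternatives, 9 of which leave out 1 array. Nek2 and Mybl2, like Zw10 among the lower calls, lost theirs on the mean of probe sets. Of the 9 lower calls, those of Cdc25c, Cenpi and Ska1 held in all 19. Of the 30 genes not called, 13 were called in at least 1 alternative. Leaving out 1 array was enough for Tpx2 and Bub3 (RS_DMSO replicate 3), Pttg1 (RS_DMSO replicate 2), Birc5 and Kntc1 (RS_Rap replicate 1), and Tpx2, Kntc1, Cenpe and Foxm1 (RS_Rap replicate 2), as well as Tpx2 (RS_Rap replicate 3).

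Further probe sets of the same genes gave no call opposite to that of the probe set used. The 58 genes had 127 probe sets, of which 115 passed the filter, and 57 of these, for 36 genes, were not the ones used above. In RS_Rap against RS_DMSO cells, 40 of the 57 were lower and 17 not called, and none was higher. In RR_Rap against RS_Rap cells, 43 were higher and 14 not called. In RR_Rap against RS_DMSO cells, 4 were lower, 13 higher and 40 not called, and 38 of the 57 had the same call as the probe set used. Anln and Cenpn, not called on the probe set used, had another called lower. Bub3 and Pttg1, likewise not called, had another called higher.

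Other mitosis genes, 100 in 5 lists of which 97 were tested, were more often lower than higher in RS_Rap cells. These lists too were chosen with earlier results of these data known. Of the 97, 64 were lower (66.0%, against 15.2% of all genes) and 7 higher (7.22%, against 20.4%) than in RS_DMSO cells, with a median of -0.82. In RR_Rap against RS_DMSO cells 19 were lower (19.6%, against 25.8%) and 37 higher (38.1%, against 25.9%), with a median of 0.09. In RR_Rap against RS_Rap cells 8 were lower (8.25%, against 30.1%) and 76 higher (78.4%, against 26.4%), with a median of 1.22. Among other kinetochore and centromere genes, 19 of 23 tested fell in RS_Rap (82.6%, against 15.2% of all genes) and 1 rose (4.35%, against 20.4%). Spdl1 was at -2.25 ± 0.14, Cenpw at -2.09 ± 0.09 and Sgo1, the guardian of centromeric cohesion, at -2.07 ± 0.10. Zwint, a kinetochore partner of the RZZ complex, was lower in RR_Rap than in DMSO cells, at -1.37 ± 0.11, as was Mis12, of the Mis12 complex, at -0.74 ± 0.15, while Oip5, a centromere licensing factor, was 0.64 ± 0.24 higher.

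Of 15 subunits and regulators of the anaphase-promoting complex, 4 were lower (26.7%, against 15.2% of all genes) and 2 higher (13.3%, against 20.4%) in RS_Rap cells. The called falls were led by the inhibitor Fbxo5 (EMI1) at -2.21 ± 0.11 and the ligase's partner enzyme Ube2s at -1.15 ± 0.08. Fzr1 followed at -0.65 ± 0.11. The subunit Anapc2, named after its values were seen, rose by 0.53 ± 0.07. In the resistant line 8 of the 15 were higher than in DMSO cells (53.3%, against 25.9% of all genes) and 1 lower (6.67%, against 25.8%). Anapc13 was at 1.02 ± 0.08, Anapc1 at 0.78 ± 0.10 and Cdc26 at 0.64 ± 0.07. Of 16 cohesin and condensin II genes, 8 were lower in RS_Rap cells, against 15.2% of all genes. A further 2 were higher, against 20.4% of all genes, and are no result about this list. The falls were led by the cohesin acetyltransferase Esco2 (-2.75 ± 0.17), the condensin II subunit Ncapg2 (-2.60 ± 0.12) and sororin, Cdca5 (-2.44 ± 0.08). In RR_Rap against DMSO 7 of the 16 were higher (43.8%, against 25.9% of all genes) and 3 lower (18.8%, against 25.8%). Nipbl, the cohesin loader, and Wapl, its release factor, were higher in RR_Rap than in DMSO cells, at 1.19 ± 0.10 and 1.02 ± 0.10.

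Of 33 other regulators of mitosis and cytokinesis, 27 were lower in RS_Rap than in DMSO cells (81.8%, against 15.2% of all genes). A further 1 was higher (3.03%, against 20.4%). The falls were led by Gtse1 (-2.75 ± 0.19), Depdc1a (-2.48 ± 0.11) and Arhgap11a (-2.35 ± 0.13). Against DMSO, the resistant line was higher for 12 (36.4%, against 25.9% of all genes) and lower for 6 (18.2%, against 25.8%) of the 33. It was higher for Rcc1, the RAN exchange factor (1.19 ± 0.21), Psrc1 (1.18 ± 0.26) and Tacc3, a spindle protein (1.12 ± 0.14), and lower for Septin9, a septin of the cytoskeleton (-1.12 ± 0.10), and Gtse1 (-0.83 ± 0.19), both named after their values were seen. Tacc3 was also the highest of the 97 in RR_Rap against RS_Rap cells, at 3.40 ± 0.14. Of the DREAM and MuvB complex, which reads the CHR, 6 of 10 tested subunits fell in RS_Rap cells, against 15.2% of all genes. A further 1 rose, against 20.4% of all genes. The complex's DNA-binding subunit Lin54 was at -1.79 ± 0.13, Lin9 at -1.48 ± 0.26 and its pocket protein Rbl1 at -1.42 ± 0.08. Its pocket protein Rbl2, found in resting cells, was lower in RR_Rap than in DMSO cells, at -0.64 ± 0.10, and higher in RS_Rap, at 0.29 ± 0.10, and E2f4 was 0.93 ± 0.17 higher in RR_Rap.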

How the data were processed

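RNA of 9 samples was hybridised to Affymetrix mouse arrays and processed with GCOS 1.4, per the submitters' processing notes; the summary algorithm is not given in the sources used here. The authors deposited linear intensity values (signals) for 45101 probe sets, whose 2% trimmed mean is 250 on every array. No depth applies to arrays; their number limits the precision. Of the probe sets, 64 were controls, 34945 had 1 gene symbol in the platform table, 932 several and 9160 none. Each gene was read from its brightest probe set with 1 symbol, as log2(signal + 16), without further normalization; genes whose probe set lay below the 40th percentile of mean signal (22.2) were left out, leaving 12715. Differences between the 3 groups were fitted over all 9 arrays with limma 3.58.1 in R 4.3.3 (lmFit, eBayes with trend), with Benjamini-Hochberg adjustment over all genes at 0.05. The fit was tested on simulated data. No other file or annotation was used, except RefSeq promoter windows and RefSeq gene synonyms, by which listed names were matched to the array's symbols.

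Members and gene lists were chosen with earlier results of these data known. Values on every array are given, in each role list, for the 2 genes with the largest change in RS_Rap cells, the gene with the largest change in RR_Rap cells and each gene called lower there; other lists name up to 3 called genes per comparison, and further genes are said to be chosen after their values were seen. Alternatives varied the pseudocount, filter, scaling, probe set rule, eBayes trend, samples fitted and replicate block, and left out each array. No 2-group exact test of 3 against 3 arrays can go below p = 0.1.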

Additional observations from a re-analysis of the deposited data

How the results depend on the processing

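The fall of the mitosis genes in RS_Rap cells and their higher level in RR_Rap than in RS_Rap cells held for 57 of 58 genes in each of 19 alternatives (Bub3 and Zw10 being the exceptions given above), while calls in RR_Rap against RS_DMSO cells depended on scaling; the causes were not tested. Against RS_DMSO, the median change in RS_Rap was -2.14, -1.88 with a pseudocount of 64 and -1.72 on the mean of probe sets, and -2.18 to -2.03 with 1 array left out. In RR_Rap against RS_Rap it was 2.26, 1.95 with a pseudocount of 64, 2.39 with arrays centred on the 75th percentile and 1.84 with the mean of probe sets. Genes lower in RR_Rap than in RS_DMSO numbered 9, 5 with 75th percentile centring, and 8 to 11 with 1 array left out; Aurka (-0.17) and Spc25 (0.09) changed sign with the mean of probe sets. Other mitosis genes higher in RS_Rap than in RS_DMSO numbered 7, 4 with 75th percentile centring, quantile normalization, the mean of probe sets or no eBayes trend, and 4 to 6 with 1 array left out. With the mean of probe sets, other mitosis genes numbered 18 higher in RR_Rap than in RS_DMSO, against 37, and 5 lower in RR_Rap than in RS_Rap, against 8.

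Replicate numbers did not pair the arrays: the deviations of same-numbered arrays correlated at -0.0845 to 0.0151. With the replicate number as a block, 58 genes were lower in RS_Rap than in RS_DMSO, 9 were lower and 19 higher in RR_Rap than in RS_DMSO, and 57 were higher in RR_Rap than in RS_Rap, Zw10 being the call lost. Dim probe sets, near the pseudocount, have compressed changes.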
